A study of Mus musculus with 6 samples.

Results

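The transcripts followed here belong to the ribonuclease A superfamily and were measured in alveolar macrophages, which reside in the air spaces of the lung. They were chosen by name, as the table rows Ear1, Ear2, Ear6, Ear10, Rnase2a, Rnase4 and Ang, 7 of 46078 gene rows. All 7 passed the filter on low counts, so that each was among the 15147 genes tested. Rnase2a did so only through the group of mice in which it was high. Polyadenylated RNA of untreated mice was sequenced from alveolar macrophages sorted from lung, 1 library per mouse. The 3 Car4fl/fl-CD11cCre mice were homozygous for a floxed allele of Car4 (the gene of carbonic anhydrase 4) and carried CD11cCre, a Cre transgene named for the integrin CD11c (Itgax), which dendritic cells also express. The 3 Car4fl/fl mice carried the same floxed alleles without Cre and served as controls. Since no mice had Cre without the floxed alleles, an effect of the transgene and one of the deletion cannot be told apart. The sources used here give neither the age and sex of the mice nor the markers of the sort.

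Ribonucleases of the A superfamily are small secreted enzymes that cut RNA and are held by a cytosolic protein, the ribonuclease inhibitor Rnh1. Rodents have expanded one branch into the eosinophil-associated ribonucleases (Ear genes and Rnase2a, an alias of which is Ear11), relatives of the human eosinophil granule proteins EDN and ECP. In mouse, Ear1 and Ear2 are also well-known transcripts of alveolar macrophages, the EAR2 protein is known to attract dendritic cells, and the Rnase2a product has been described as a macrophage attractant. Angiogenin, the product of Ang, promotes vessel growth and cuts tRNA under stress, and Rnase4 is known to be transcribed from promoters that it shares with Ang.

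Depth ran from 53824475 to 65443314 gene counts per library, and 3 counts in a library correspond to 0.0458 to 0.0557 CPM, a floor that covers counting error only. Libraries of a group differed by more than sampling noise, the chi-square over its degrees of freedom being 21.7 to 57.5 for pairs of libraries. Car4 fell to 40.2, 46.9 and 36.3 CPM in Car4fl/fl-CD11cCre libraries, against 499, 385 and 270 CPM in Car4fl/fl libraries (log2 fold change -3.23 ± 0.22 (SE), adjusted p 0.0047 by edgeR's quasi-likelihood test). Of 15 fixed alveolar macrophage markers none was at 0, and their summed level was 33000 to 46500 CPM in Car4fl/fl-CD11cCre libraries and 28200 to 30700 CPM in Car4fl/fl libraries. Chil3, a chitinase-like gene that is also in the IL-4 and IL-13 list below, carried that difference, and the other 14 markers summed to 14050, 14000 and 13490 CPM in Car4fl/fl-CD11cCre libraries and 14920, 13820 and 12820 CPM in Car4fl/fl libraries. Every Car4fl/fl-CD11cCre value of the markers Siglecf and Cidec lay below the controls. Siglecf was at 547 ± 71.7 CPM in Car4fl/fl-CD11cCre and 707 ± 44.5 CPM in Car4fl/fl libraries (edgeR adjusted p 0.197, DESeq2 adjusted p 0.0124). In 5 of the 15 markers, Marco, Chil3, Fabp5, Itgax and Mrc1, every such value lay above the controls. Marco was at 455 ± 57.0 CPM in Car4fl/fl-CD11cCre and 296 ± 15.5 CPM in Car4fl/fl libraries (edgeR adjusted p 0.146, DESeq2 adjusted p 8.7e-08). Of all tested genes, 8.63% lay wholly above the controls and 9.22% wholly below. The defining eosinophil markers were at or near 0. Epx, the eosinophil peroxidase gene, had 1 count in Car4fl/fl-CD11cCre library 2 and 0 in the other libraries, and Prg2, the major basic protein gene, had 1, 3 and 4 counts in Car4fl/fl-CD11cCre libraries and 0, 2 and 1 in Car4fl/fl libraries. The 8 eosinophil markers present in the table summed to 0.406 to 2.9 CPM in Car4fl/fl-CD11cCre libraries and 0.229 to 0.416 CPM in Car4fl/fl libraries. The highest of these sums, in Car4fl/fl-CD11cCre library 3, came mostly from 113 counts of Alox15, a lipoxygenase gene that macrophages can also express.

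Levels are given as CPM, a gene's counts scaled to the depth of the library and to TMM factors, with mean ± SD of 3 libraries per group, and log2 fold changes are Car4fl/fl-CD11cCre over Car4fl/fl. The transcripts abundant in both groups, Ear2, Ear1 and Rnase4, overlapped between groups, as did Ang and Ear10. The rarer Rnase2a and Ear6 were above every control in each Car4fl/fl-CD11cCre library. Rnase2a was at 35.0 ± 51.1 CPM in Car4fl/fl-CD11cCre libraries and 0.358 ± 0.391 CPM in Car4fl/fl libraries, and Ear6 was at 9.003 ± 2.55 CPM in Car4fl/fl-CD11cCre libraries and 4.05 ± 1.05 CPM in Car4fl/fl libraries. None of the 7 passed the adjusted threshold of 0.05 in edgeR, where 0.0132% of all tested genes did. In bulk RNA, fewer cells of a type and less RNA per cell cannot be told apart.

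Some of these genes are so alike in sequence that their counts may not be separable. Ear1, Ear2 and Ear10 lie in a cluster on chromosome 14 of GRCm38, and in GENCODE M21 their genes run from 43818765 to 43875517 (minus strand), from 44102654 to 44103534 (plus) and from 43922720 to 43923559 (minus). Rnase2a (51255262 to 51256112, minus) and Ear6 (51853699 to 51854643, plus) lie farther along the chromosome, as do Rnase4 (51091077 to 51106151, plus) and Ang (51091150 to 51102009, plus). The coding sequence of Ear2 has 468 bases and matched that of Ear10 at 454 and that of Ear1 at 445 aligned bases, an identity of 97.0% and 95.1%. Ear6 was 87.6% and Rnase2a 79.7% identical to Ear2, whereas Rnase4 and Ang were at 48.7% and 46.2%. The stretch shown, coding bases 121 to 240 of Ear2 and its counterparts, is given because the members differ in how well a read from it can be assigned. Capitals mark bases that differ from Ear2 (chr14:44103007-44103126, plus). The others come from chr14:43923129-43923248 (Ear10, minus), chr14:43819170-43819289 (Ear1, minus), chr14:51854118-51854237 (Ear6, plus) and chr14:51255667-51255786 (Rnase2a, minus), all read from GENCODE M21 transcripts in the direction of transcription.
Ear2: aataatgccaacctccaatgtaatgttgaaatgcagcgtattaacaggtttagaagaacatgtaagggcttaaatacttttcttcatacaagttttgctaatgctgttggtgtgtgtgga
Ear10: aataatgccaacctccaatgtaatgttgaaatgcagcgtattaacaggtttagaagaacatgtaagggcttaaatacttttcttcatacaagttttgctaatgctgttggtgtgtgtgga
Ear1: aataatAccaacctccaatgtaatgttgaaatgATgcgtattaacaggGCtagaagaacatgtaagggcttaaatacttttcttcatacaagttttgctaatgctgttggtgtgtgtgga
Ear6: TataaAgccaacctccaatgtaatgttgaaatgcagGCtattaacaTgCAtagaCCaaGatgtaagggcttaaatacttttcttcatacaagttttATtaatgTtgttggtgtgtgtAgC
Rnase2a: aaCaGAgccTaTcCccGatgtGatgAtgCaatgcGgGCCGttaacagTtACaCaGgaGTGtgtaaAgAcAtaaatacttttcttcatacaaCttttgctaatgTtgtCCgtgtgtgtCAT

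The stretch of Ear10 was letter for letter that of Ear2, Ear1 differed at 5 of 120 bases, Ear6 at 15 and Rnase2a at 33. Across whole transcripts, 57.4% of the 50-base windows of Ear1 occurred exactly in a transcript of another gene, as did 41.5% of those of Ear2 and 39.9% of those of Ear10. With 100-base windows the shares were 23.9% for Ear1, 13.9% for Ear2 and 24.2% for Ear10. Ear1 shared most with the pseudogene Ear-ps9, which overlaps its locus (41.4% of its 50-base windows), and then with Ear2 (23.8%). The Ear-ps9 row itself held 15, 8 and 6 counts in Car4fl/fl-CD11cCre libraries and 9, 7 and 8 in Car4fl/fl libraries. The pseudogene Ear-ps2 held 12, 9 and 13 counts in Car4fl/fl-CD11cCre libraries and 14, 15 and 11 in Car4fl/fl libraries. Ear6 shared 0.954% of its 50-base windows and none of its 100-base windows, and Rnase2a shared none at either length. Rnase4 and Ang have 219 exon bases in common, 13.4% of the exon bases of Rnase4 and 18.2% of those of Ang. The sources used here do not state the read length, the strand setting or how reads with several matches were counted, so levels of Ear1, Ear2 and Ear10 are uncertain relative to each other, and those of Rnase4 and Ang relative to each other in their shared exons.

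**Figure D1:**
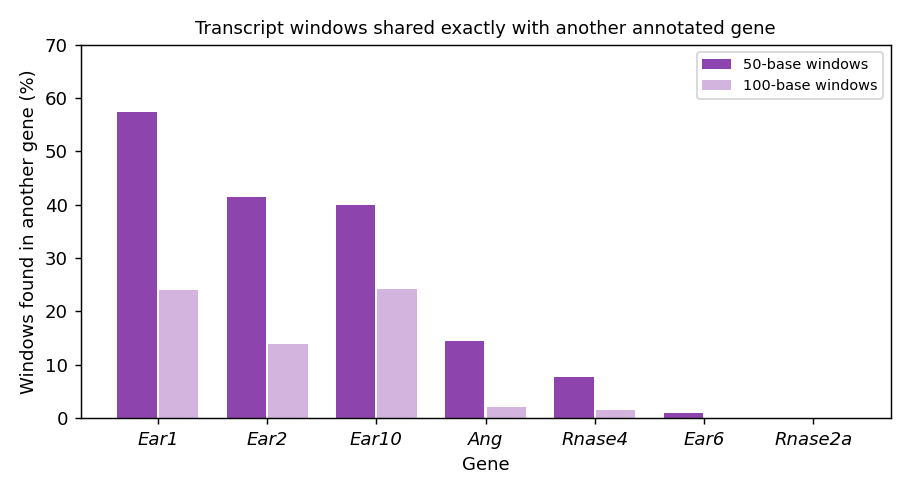
Share of the distinct 50-base (dark) and 100-base (light) windows of each gene's GENCODE M21 transcripts that occur exactly, on either strand, in a transcript of another gene, in percent. Ear1, Ear2 and Ear10 share between 39.9 and 57.4% of their 50-base windows, while Ear6 shares 0.954% and Rnase2a none.

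Ear2 was the most abundant member. It was at 1646, 1383 and 1535 CPM in Car4fl/fl-CD11cCre libraries, against 1549, 1543 and 1676 CPM in Car4fl/fl libraries. The groups overlapped, and the highest and lowest of the 6 values differed by 1.21-fold. Ear2 did not pass the test (log2 fold change -0.06 ± 0.08 (SE), edgeR adjusted p 0.813). By mean level Ear2 ranked 44 among 15147 tested genes, and 11 when levels were divided by exon length.

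Ear1, the second Ear transcript of these cells, was lower on average in Car4fl/fl-CD11cCre libraries but overlapped between groups. It was at 421, 285 and 288 CPM in Car4fl/fl-CD11cCre libraries and 518, 461 and 373 CPM in Car4fl/fl libraries. Car4fl/fl-CD11cCre library 1 lay within the control range, and libraries 2 and 3 lay below every control. The log2 fold change was -0.44 ± 0.17 (SE), and the edgeR p was 0.0353 before adjustment and 0.351 after it. Without Car4fl/fl-CD11cCre replicate 1 it was -0.66 with an adjusted p of 0.0621, the lowest of 15 alternatives (range 0.0621 to 0.636).

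Because reads of Ear1 and Ear2 may not be separable, their sum and their ratio were also taken. Their summed level was 2067, 1668 and 1823 CPM in Car4fl/fl-CD11cCre libraries and 2067, 2003 and 2049 CPM in Car4fl/fl libraries, a ratio of means of 0.908. Library 1 of the Car4fl/fl-CD11cCre group was again at the control level and libraries 2 and 3 lay below it. Ear1 made up 20.4, 17.1 and 15.8% of the Ear1 and Ear2 counts in Car4fl/fl-CD11cCre libraries and 25.1, 23.0 and 18.2% in Car4fl/fl libraries. This share does not depend on the scaling of libraries. Its mean difference was -4.33 percentage points, with an exact two-sided permutation p of 0.2, where 3 libraries against 3 cannot give less than 0.1.

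Around their RefSeq starts, Ear1 and Ear2 are nearly the same as well. The windows from 250 bases before to 50 bases after the RefSeq start (GRCm38.p6) aligned over 303 positions with 294 matching bases and 3 mismatches. They are shown because these are the 2 abundant Ear genes. The Ear1 window lies at chr14:43819590-43819889 (minus) and that of Ear2 at chr14:44102404-44102703 (plus). In GENCODE M21 the Ear1 gene extends farther upstream, to 43875517, which is outside this window. Capitals mark bases that differ from, or have no counterpart in, the other window.
Ear1: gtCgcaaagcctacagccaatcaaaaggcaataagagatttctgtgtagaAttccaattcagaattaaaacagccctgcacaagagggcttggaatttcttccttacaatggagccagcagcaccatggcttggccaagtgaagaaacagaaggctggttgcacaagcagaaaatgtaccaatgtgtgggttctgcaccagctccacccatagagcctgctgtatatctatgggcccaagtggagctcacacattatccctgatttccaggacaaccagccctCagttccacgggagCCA
Ear2: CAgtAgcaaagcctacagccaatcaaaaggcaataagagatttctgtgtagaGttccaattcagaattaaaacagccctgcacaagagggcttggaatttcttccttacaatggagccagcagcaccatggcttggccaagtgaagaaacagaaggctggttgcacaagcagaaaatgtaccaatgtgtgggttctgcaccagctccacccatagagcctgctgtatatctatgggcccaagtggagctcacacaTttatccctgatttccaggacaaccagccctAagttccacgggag

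The capitals numbered 6 in each window and 3 of them were substitutions. The letters CCAAT were found on at least 1 strand in windows of all 7 members and of Rnase2b and Rnase6, 9 genes in all, against 37.4% of 32851 RefSeq windows of the mouse genome. The letters TATAAA were found in none of these 9, against 13.6% of all windows. A gene was counted if any of its windows held the letters, whereas the shares are per window. The 9 genes are not separate cases either, because several Ear windows are near copies and Rnase4 and Ang have a window in common. A match or its absence therefore describes letters only.

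Ear10 had the fewest counts of the 7. It had 14, 16 and 12 counts in Car4fl/fl-CD11cCre libraries and 14, 25 and 12 counts in Car4fl/fl libraries, that is 0.236 ± 0.0125 CPM in Car4fl/fl-CD11cCre and 0.286 ± 0.112 CPM in Car4fl/fl libraries. The groups overlapped (log2 fold change -0.28 ± 0.37 (SE), adjusted p 0.821 by edgeR). Ear2, to which Ear10 is 97.0% identical, had between 82647 and 97383 counts in the same libraries, so the few counts on the Ear10 row cannot be assigned to that gene with certainty.

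Rnase2a, the mouse Ear11 gene, had the largest fold change of the 7 without passing the test. It had 137, 577 and 5054 counts in Car4fl/fl-CD11cCre libraries and 9, 7 and 46 counts in Car4fl/fl libraries. As levels these were 2.32, 8.94 and 93.9 CPM in Car4fl/fl-CD11cCre libraries, against 0.149, 0.116 and 0.81 CPM in Car4fl/fl libraries. The lowest Car4fl/fl-CD11cCre value lay above the highest control value, and both groups were widely spread, with 40.5-fold between the highest and the lowest Car4fl/fl-CD11cCre library and 6.96-fold between controls. Rnase2a passed the filter only through the Car4fl/fl-CD11cCre libraries, since its control counts of 9 and 7 were under the minimum count of 10.

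The ratio of means of Rnase2a was 97.8, and its log2 fold change 6.63 ± 1.57 (SE) where the edgeR p was 0.00314 before adjustment and 0.17 after it, so that it was not called. The value rested largely on Car4fl/fl-CD11cCre library 3, without which the log2 fold change was 3.98 (adjusted p 0.236). DESeq2 called it (adjusted p 0.0013), as did edgeR when low genes were kept in the fit (adjusted p 0.00511) and without Car4fl/fl-CD11cCre replicate 1 (log2 fold change 7.17, adjusted p 0.0296). Limma-voom did not (log2 fold change 5.57, adjusted p 0.613), and over 14 alternatives the adjusted p lay between 0.0013 and 0.613.

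Ear6, a member expressed at a low level in these cells, was at 6.09, 10.8 and 10.1 CPM in Car4fl/fl-CD11cCre libraries and 3.42, 3.46 and 5.26 CPM in Car4fl/fl libraries. All Car4fl/fl-CD11cCre values lay above the controls, with library 1 of that group and library 3 of the controls closest to each other. The log2 fold change was 1.15 ± 0.25 (SE), and the edgeR p was 0.00205 before adjustment and 0.159 after it. DESeq2 called Ear6 (adjusted p 0.000381), as did edgeR without a filter (adjusted p 0.00887) and without Car4fl/fl-CD11cCre replicate 1 (log2 fold change 1.36, adjusted p 0.0211), while the other alternatives did not (adjusted p up to 0.468).

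Read against all genes, 2 of the 7 members had every Car4fl/fl-CD11cCre value above the controls, where 8.63% of tested genes did, and none had every value below, where 9.22% did. An unadjusted edgeR p under 0.05 was reached by 3 members (Rnase2a, Ear6 and Ear1) and by 12.8% of tested genes. DESeq2 called 2 members higher and none lower, against 2.37% and 1.51% of the genes to which it gave an adjusted p. For edgeR, the share called higher was 1.23% without a filter and 1.59% without Car4fl/fl-CD11cCre replicate 1. The median log2 fold change of the members was -0.05, beside -0.002 over all tested genes, and 3 of the 7 were above control. Rnase2a is among the members counted here and passed the filter only through its high Car4fl/fl-CD11cCre values. Its place in these counts is therefore no separate support for a difference between groups.

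**Figure D2:**
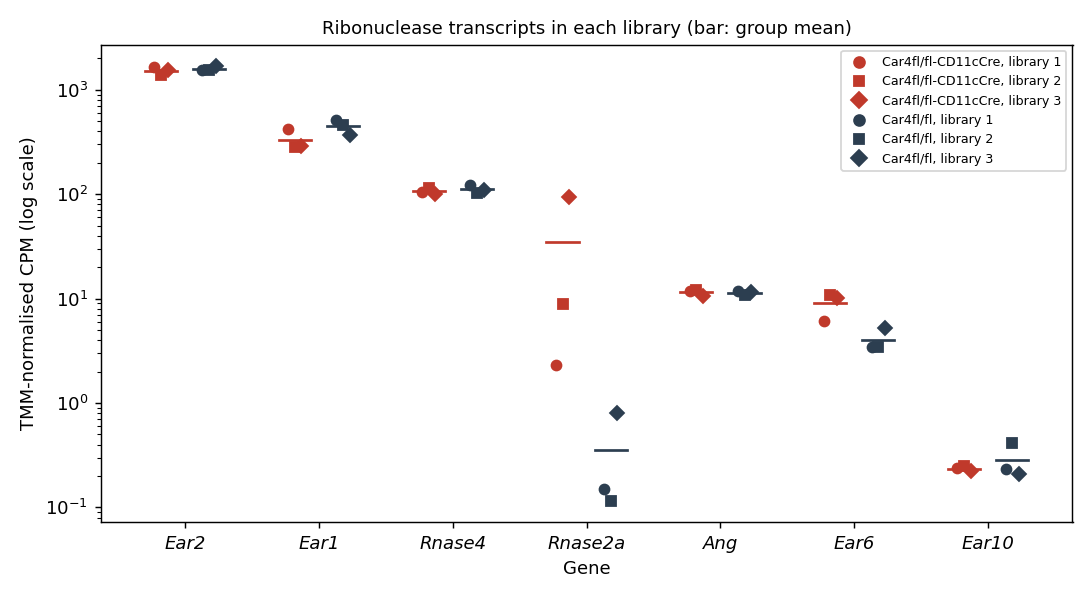
TMM-normalised CPM (log axis) of the 7 ribonuclease genes in the Car4fl/fl-CD11cCre libraries (red, left of each pair) and the Car4fl/fl libraries (dark, right), with a symbol for each library number and a bar at the group mean. Rnase2a spans 2.32 to 93.9 CPM in Car4fl/fl-CD11cCre libraries and 0.116 to 0.81 CPM in Car4fl/fl libraries, and Ear6 is the other gene without overlap.

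**Figure D3:**
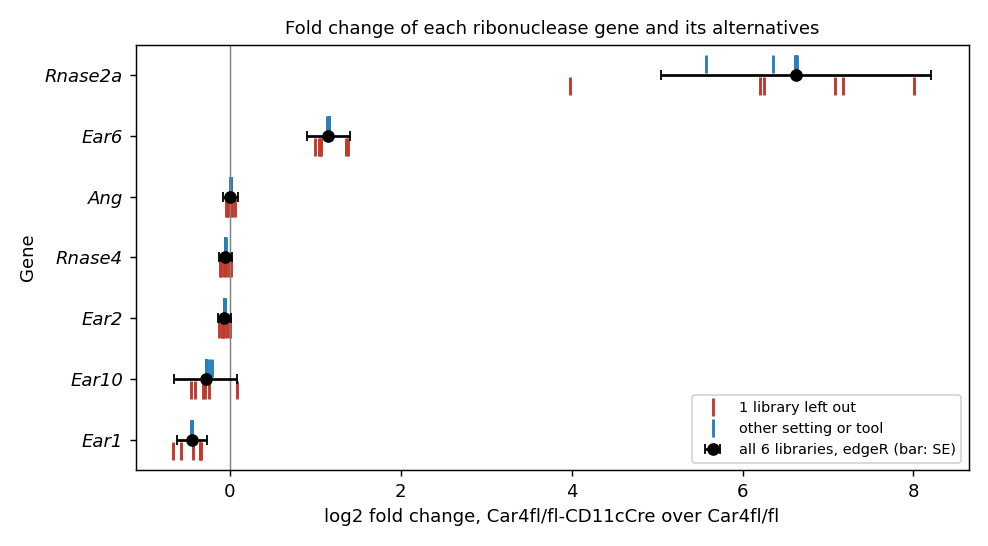
Log2 fold change, Car4fl/fl-CD11cCre over Car4fl/fl, of each gene with all 6 libraries (black, bar = SE), with 1 library left out (red ticks) and under the other settings and tools (blue ticks). Rnase2a ranges from 3.98 to 8.01 and Ear6 from 1.00 to 1.38, both to the right of 0, while the ticks of Ang, Rnase4, Ear2 and Ear10 fall on both sides of 0.

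The start regions of Rnase2a and Ear6 are shown because these were the members without overlap between groups. Rnase2a lies at chr14:51256063-51256362 (minus) and Ear6 at chr14:51853518-51853817 (plus) of GRCm38.p6 in RefSeq, and capitals mark bases that differ from, or have no counterpart in, the Ear2 window.
Rnase2a: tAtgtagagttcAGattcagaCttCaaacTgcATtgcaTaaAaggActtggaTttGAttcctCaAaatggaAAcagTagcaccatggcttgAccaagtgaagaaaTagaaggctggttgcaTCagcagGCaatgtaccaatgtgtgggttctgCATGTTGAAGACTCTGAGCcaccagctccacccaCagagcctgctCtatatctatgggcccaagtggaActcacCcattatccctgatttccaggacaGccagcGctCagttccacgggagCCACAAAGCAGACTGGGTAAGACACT
Ear6: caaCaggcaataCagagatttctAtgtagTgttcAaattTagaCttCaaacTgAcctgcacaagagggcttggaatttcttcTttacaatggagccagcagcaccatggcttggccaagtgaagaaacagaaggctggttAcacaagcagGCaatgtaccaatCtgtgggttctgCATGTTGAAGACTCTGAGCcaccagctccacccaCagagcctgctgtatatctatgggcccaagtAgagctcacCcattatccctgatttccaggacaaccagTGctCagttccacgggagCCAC

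Both windows carried the same run of 19 bases with no counterpart in Ear2, catgttgaagactctgagc. It lay 97 to 79 bases before the RefSeq start of Rnase2a (chr14:51256191-51256209) and 75 to 57 bases before that of Ear6 (chr14:51853693-51853711). In GENCODE M21 the Ear6 transcript begins at 51853699, within the run. Of 32851 RefSeq windows 2 held this run on either strand, those of Rnase2a and Ear6, so Ear1, Ear2, Ear10 and Rnase2b lacked it. The run was picked after the values were seen, it describes the letters of these windows, and its part in the result was not tested.

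Rnase4, a ribonuclease with a preference for uridine, was at 105, 115 and 101 CPM in Car4fl/fl-CD11cCre libraries and 121.5, 103 and 109 CPM in Car4fl/fl libraries. The groups overlapped and the 6 values spanned 1.2-fold (log2 fold change -0.05 ± 0.08 (SE), adjusted p 0.84 by edgeR). Ang was at 11.8, 12.2 and 10.5 CPM in Car4fl/fl-CD11cCre libraries and 11.7, 10.9 and 11.7 CPM in Car4fl/fl libraries, again with overlap (log2 fold change 0.007 ± 0.087 (SE), adjusted p 0.985). RefSeq gives both genes the same first window, chr14:51090827-51091126 (plus), shown here as the start region they have in common.
Rnase4 and Ang: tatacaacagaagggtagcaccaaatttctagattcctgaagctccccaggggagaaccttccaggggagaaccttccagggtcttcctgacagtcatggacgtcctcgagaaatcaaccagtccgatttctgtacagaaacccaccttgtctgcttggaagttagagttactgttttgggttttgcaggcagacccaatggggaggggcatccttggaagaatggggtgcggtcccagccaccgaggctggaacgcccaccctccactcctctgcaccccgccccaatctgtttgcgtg

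The ratio of Rnase4 to Ang counts was 8.93, 9.45 and 9.64 in Car4fl/fl-CD11cCre libraries and 10.4, 9.44 and 9.36 in Car4fl/fl libraries. It overlapped between groups.

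Per kilobase of exon, the order of levels in Car4fl/fl-CD11cCre libraries was Ear2 (2116 ± 184 CPM per kb), Ear1 (454 ± 107), Rnase4 (65.5 ± 4.35), Rnase2a (50.8 ± 74.0), Ang (9.55 ± 0.719), Ear6 (9.53 ± 2.70) and Ear10 (0.348 ± 0.0185). Neither Rnase4 and Rnase2a nor Rnase2a and Ang nor Ang and Ear6 differed beyond their spread there. In Car4fl/fl libraries it was Ear2 (2210 ± 104 CPM per kb), Ear1 (617 ± 100.2), Rnase4 (67.9 ± 5.76), Ang (9.51 ± 0.38), Ear6 (4.28 ± 1.11), Rnase2a (0.519 ± 0.567) and Ear10 (0.422 ± 0.166). Only Rnase2a and Ear10 were neighbours within their spread among the controls. Rnase2a thus stood beside Rnase4 in one group and beside Ear10 in the other, with a single library far above the rest.

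Of 18 further superfamily genes sought, 13 were in the table and 2 passed the filter. Rnase2b, an alias of which is Ear5 and whose coding sequence is 83.7% identical to that of Rnase2a, was at 1.86, 4.15 and 3.33 CPM in Car4fl/fl-CD11cCre libraries and 2.01, 1.84 and 1.34 CPM in Car4fl/fl libraries. Libraries 2 and 3 of the Car4fl/fl-CD11cCre group lay above every control and library 1 among them (log2 fold change 0.85 ± 0.30 (SE), adjusted p 0.311 by edgeR). Rnase2a made up 55.5, 68.3 and 96.6% of the Rnase2a and Rnase2b counts in Car4fl/fl-CD11cCre libraries and 6.92, 5.93 and 37.7% in Car4fl/fl libraries, without overlap. Rnase6, an antimicrobial ribonuclease of phagocytes, was at 45.4 ± 4.52 CPM in Car4fl/fl-CD11cCre libraries and 41.2 ± 4.11 CPM in Car4fl/fl libraries (adjusted p 0.619). Rnase12 had 7, 1 and 4 counts in Car4fl/fl-CD11cCre libraries and 7, 6 and 6 in Car4fl/fl libraries, Ang4 and Ang5 had 1 count each in Car4fl/fl-CD11cCre library 1, and the other genes of the list in the table had none. All Ear and Rnase2 rows together took 0.209, 0.167 and 0.193% of the counts of the Car4fl/fl-CD11cCre libraries and 0.204, 0.204 and 0.207% of those of the Car4fl/fl libraries.

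The inhibitor that binds these enzymes did not pass the test at the transcript level. Rnh1 was at 526 ± 37.7 CPM in Car4fl/fl-CD11cCre libraries and 512 ± 52.1 CPM in Car4fl/fl libraries (log2 fold change 0.04 ± 0.09 (SE), adjusted p 0.904 by edgeR). Plxnb2, which encodes plexin B2, a receptor of angiogenin, was at 140 ± 25.6 CPM in Car4fl/fl-CD11cCre libraries and 135 ± 41.3 CPM in Car4fl/fl libraries (adjusted p 0.959). Of the 15 tested genes for nucleases and RNA sensors of the endolysosome, none was called in either direction by edgeR, 9 were above control, and their median was 0.08 on the log2 scale. DESeq2 called 1 of them higher and 0 lower, against 2.37% and 1.51% of the genes to which it gave an adjusted p. In 1 every Car4fl/fl-CD11cCre value lay above the controls (8.63% of all tested genes) and in 0 every value lay below (9.22%). Among the genes of this list with the smallest p was the single-stranded RNA sensor Tlr8. It was at 196 ± 17.6 CPM in Car4fl/fl-CD11cCre and 247 ± 56.5 CPM in Car4fl/fl libraries (edgeR adjusted p 0.45).

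Genes of the response to IL-4 and IL-13, the cytokines of alternative macrophage activation, were set beside Rnase2a. Of 18 tested genes none was called by edgeR, 15 were above control, where 49.4% of all tested genes were, and their median was 0.42 on the log2 scale. In 8 of the 18 every Car4fl/fl-CD11cCre value lay above the controls (8.63% of all tested genes) and in 1 every value lay below (9.22%). DESeq2 called 5 higher and 1 lower, against 2.37% and 1.51% of all genes to which it gave an adjusted p. Retnla and Ccl24 of this list were given none. The list, like the others, was chosen with earlier results of these data known, so the shares describe it and are no test. Arg1, which encodes arginase 1, averaged 90.8 ± 93.3 CPM in Car4fl/fl-CD11cCre libraries and 1.01 ± 0.563 CPM in Car4fl/fl libraries, and the E-cadherin gene Cdh1 averaged 143 ± 12.1 CPM in Car4fl/fl-CD11cCre and 109 ± 7.08 CPM in Car4fl/fl libraries, both with an adjusted p of 0.146 in edgeR. Of 14 tested genes for GM-CSF signalling and regulators of alveolar macrophages none was called by edgeR, 4 were above control and the median was -0.06. DESeq2 called 2 of the 14 higher and 1 lower. Every Car4fl/fl-CD11cCre value lay above the controls in 2 of the 14 and below them in 3. Among the genes of this list with the smallest p was the transcription factor gene Maf. It was at 2.66 ± 0.825 CPM in Car4fl/fl-CD11cCre libraries and 1.15 ± 0.165 CPM in Car4fl/fl libraries (edgeR adjusted p 0.159).

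The genes whose pattern over the 6 libraries was most like that of Rnase2a, by the root mean square difference of centred log2 CPM among 10827 genes, were Ccl24 (0.649), Arg1 (0.783) and Mmp12 (1.12). Ccl24 encodes an eosinophil-attracting chemokine, eotaxin 2, and was at 0.778, 1.04 and 40.4 CPM in Car4fl/fl-CD11cCre libraries and 0.0166, 0.0332 and 0.158 CPM in Car4fl/fl libraries. The control values of Ccl24 are 1, 2 and 9 counts, of which the first and second are under the floor of 3 counts. Arg1 was at 8.16, 72.2 and 192 CPM in Car4fl/fl-CD11cCre libraries and 0.481, 0.948 and 1.6 CPM in Car4fl/fl libraries. Mmp12, the macrophage elastase gene, was at 23.9, 111 and 566 CPM in Car4fl/fl-CD11cCre libraries and 7.97, 4.86 and 4.84 CPM in Car4fl/fl libraries. Each of them, like Rnase2a, was highest in library 3 of the Car4fl/fl-CD11cCre group and lowest of that group in library 1. A shared order follows from picking the genes by their pattern over these same libraries. Ccl24 met the minimum mean of 1 CPM only through Car4fl/fl-CD11cCre library 3.

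For Ear6 the genes of most like pattern were Man1a (0.0842), Maf (0.104) and Rcn1 (0.131). Man1a, a mannosidase gene of N-glycan trimming, was at 31.1, 56.1 and 50.6 CPM in Car4fl/fl-CD11cCre libraries and 19.1, 15.9 and 26.8 CPM in Car4fl/fl libraries. Maf was at 1.76, 3.38 and 2.84 CPM in Car4fl/fl-CD11cCre libraries and 1.03, 1.08 and 1.34 CPM in Car4fl/fl libraries. Rcn1, which encodes the calcium-binding protein reticulocalbin 1, was at 1.79, 2.77 and 2.21 CPM in Car4fl/fl-CD11cCre libraries and 0.797, 0.865 and 1.34 CPM in Car4fl/fl libraries. All 3, like Ear6, were highest in Car4fl/fl-CD11cCre library 2 and, among the controls, in library 3, which again follows from how they were picked.

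**Figure D4:**
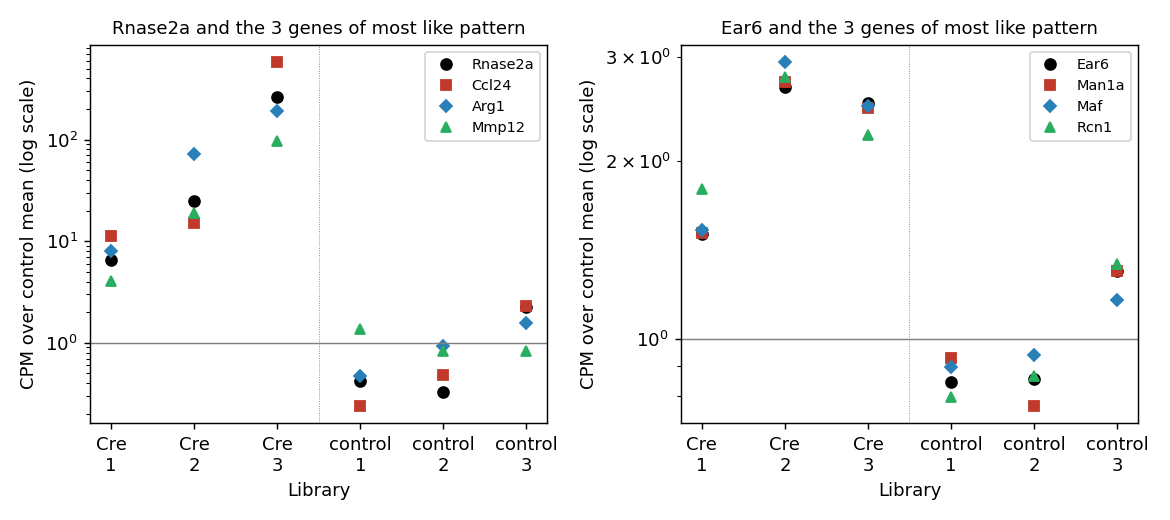
CPM of each library divided by the mean of the 3 Car4fl/fl libraries (log axes) for Rnase2a and for Ear6, each with the 3 genes of most like pattern; Car4fl/fl-CD11cCre libraries are left of the dotted line and Car4fl/fl libraries right of it. Rnase2a reaches 262 times its control mean in Car4fl/fl-CD11cCre library 3 and 6.46 times in library 1, while Ear6 lies between 1.5 and 2.67 times its control mean in that group.

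Summed markers of interstitial macrophages had the same order as Rnase2a over the Car4fl/fl-CD11cCre libraries. The same order was found in those libraries for alveolar macrophage (33000, 41900 and 46500 CPM), eosinophil (0.406, 0.558 and 2.9 CPM) and lymphocyte markers (7.37, 9.14 and 11.9 CPM). The other marker lists did not have it. For alveolar macrophages the order came from Chil3, without which the other 14 markers summed to 14050, 14000 and 13490 CPM in those libraries. The eosinophil and lymphocyte sums kept the order without their marker of largest difference. The 8 interstitial macrophage markers, all present in the table and none at 0, summed to 10.6, 39.7 and 76.3 CPM in Car4fl/fl-CD11cCre libraries and 5.88, 7.88 and 6.14 CPM in Car4fl/fl libraries. The complement gene C1qa alone was at 1.88, 12.4 and 18.2 CPM in Car4fl/fl-CD11cCre and 0.681, 1.01 and 0.722 CPM in Car4fl/fl libraries. Without C1qb, the marker of largest difference, the other 7 still summed to 8.74, 29.6 and 52.9 CPM in Car4fl/fl-CD11cCre and 5.05, 6.93 and 5.4 CPM in Car4fl/fl libraries. Their part in the Rnase2a result was not tested. Folr2 and Lyve1, markers of the same list, overlapped between groups, and every Car4fl/fl-CD11cCre value of Cd163 lay below the controls. The 9 neutrophil markers, with Ly6g at 0, summed to 101 to 111 CPM in Car4fl/fl-CD11cCre libraries and 86.0 to 95.5 CPM in Car4fl/fl libraries. Without Csf3r the neutrophil sums overlapped, at 53.6, 62.4 and 53.5 CPM in Car4fl/fl-CD11cCre and 56.3, 43.3 and 41.3 CPM in Car4fl/fl libraries. The 7 monocyte markers summed to 523 to 622 CPM in Car4fl/fl-CD11cCre and 640 to 767 CPM in Car4fl/fl libraries, a difference carried by Nr4a1, without which the sums were 118, 111 and 110.0 CPM in Car4fl/fl-CD11cCre and 120, 119 and 110.4 CPM in Car4fl/fl libraries. The 9 lung epithelial markers summed to 96.6 to 167 CPM in Car4fl/fl-CD11cCre and 148 to 245 CPM in Car4fl/fl libraries. There Epcam carried the difference, and without it the sums were 132, 80.6 and 95.2 CPM in Car4fl/fl-CD11cCre and 89.2, 81.0 and 92.9 CPM in Car4fl/fl libraries. The 8 lymphocyte markers summed to 7.37 to 11.9 CPM in Car4fl/fl-CD11cCre and 5.99 to 7.97 CPM in Car4fl/fl libraries, and the 7 dendritic cell markers to 6.55 to 9.79 CPM in Car4fl/fl-CD11cCre and 7.39 to 9.46 CPM in Car4fl/fl libraries. The 7 basophil and mast cell markers, with Mcpt8 and Prss34 at 0, summed to 0.093 to 0.135 CPM in Car4fl/fl-CD11cCre and 0.141 to 0.283 CPM in Car4fl/fl libraries. Without Cpa3 these sums overlapped, at 0.0507, 0 and 0.0186 CPM in Car4fl/fl-CD11cCre and 0.0166, 0.0332 and 0.0352 CPM in Car4fl/fl libraries.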

How the data were processed

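Libraries came from alveolar macrophages sorted from mouse lung (3 Car4fl/fl-CD11cCre and 3 Car4fl/fl mice), with RNA from the RNeasy Plus Micro kit and capture of polyadenylated mRNA, per the labels' protocols. The authors deposited whole-number counts per gene, not normalized. The submitters' processing notes name STAR 2.6.1, featureCounts 1.6.4, cutadapt 2.5 and the build GRCm38, without a role for each. None of the sources names the annotation release. Columns were matched to mice by the library names in the labels. Where a symbol stood on several rows (214 symbols), the row with the most counts was used.

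The test was edgeR 4.0.16 under R 4.3.3 (filterByExpr with a minimum count of 10, TMM factors of 0.986 to 1.02, glmQLFit with default settings, glmQLFTest, two-sided, Benjamini-Hochberg adjustment over 15147 genes, threshold 0.05, no covariate). Standard errors were taken as the size of the log2 fold change over the root of F. Alternatives were RLE and upper-quartile scaling, DESeq2 1.42.0, limma-voom (limma 3.58.1), no filter, a minimum of 5 CPM in 3 libraries, blocking on the replicate number, and leaving out each library. Robust and newer glmQLFit settings, and marker sums without the marker of largest difference, were added after seeing the data. The code was tested on simulated data. P-values measure the spread between these mice only.

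The 7 genes and all lists were chosen with earlier results of these data known. Named were all 7 genes, superfamily rows with at least 3 counts in a library, for each list its called genes or else the 2 of smallest p, and, for the 2 members of largest spread with a mean of at least 1 CPM, the 3 genes of most like log2 CPM (prior count 2) with a mean of at least 1 CPM. Some genes that this rule names are not reported here. Windows and coding sequences came from GENCODE M21 and start regions from RefSeq GRCm38.p6, where all 7 genes were found. Figures were drawn with matplotlib 3.10.9.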

Additional observations from a re-analysis of the deposited data

How the results depend on the processing

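With edgeR, 1 gene was called higher (Plcb4, named after its value was seen) and 1 lower (Car4) in Car4fl/fl-CD11cCre libraries. DESeq2 called 345 higher and 219 lower, edgeR without a filter 340 and 183, and the robust setting left 0 lower. Leaving out 1 library gave 1 to 249 higher and 0 to 52 lower. Both extremes of the lower count came from controls (0 without Car4fl/fl replicate 2, 52 without Car4fl/fl replicate 3), and 249 higher came without Car4fl/fl-CD11cCre replicate 1. The cause was not tested. The log2 fold change of Ear6 was 1.16 in DESeq2 and 1.15 without a filter, and that of Rnase2a 6.61 and 6.62, each then called. With 1 library left out, Ear6 ranged from 1.00 to 1.38, Rnase2a from 3.98 to 8.01, Ear1 from -0.66 to -0.33, Ear2 from -0.13 to 0.00061, Ear10 from -0.46 to 0.087, Rnase4 from -0.11 to 0.014 and Ang from -0.039 to 0.067. The sign of Ear2, Ear10, Rnase4 and Ang therefore depends on single libraries, and no scaling changed a sign or a call of the 7. With at least 5 CPM in 3 libraries, Ear10 and Rnase2a were not tested.

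No pairing by replicate number was seen, though 3 libraries per group cannot exclude it. Same-numbered libraries deviated with correlations of -0.0426, -0.185 and 0.0562, and not every library correlated best with its own number. With the number as a block, edgeR called 8 genes higher and 2 lower, and Rnase2a was called (log2 fold change 6.36, adjusted p 0.0109).

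Depth limits Ear10, Rnase12 and the control values of Rnase2a and Ccl24, which rest on few counts.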

Other observations

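Control library 3 lay on the Car4fl/fl-CD11cCre side of the other controls for some of these genes and on the far side for others. It had the highest Rnase2a and Ear6 of the controls (0.81 and 5.26 CPM, against 0.116 to 0.149 and 3.42 to 3.46 CPM in libraries 1 and 2), the lowest Ear1 (373 CPM, against 461 and 518 CPM) and the lowest Car4 (270 CPM, against 385 and 499 CPM). It also had the lowest Rnase2b of the controls (1.34 CPM, against 1.84 and 2.01 CPM) and the highest Ear2 (1676 CPM, against 1543 and 1549 CPM), where the Car4fl/fl-CD11cCre means were on the other side of the control mean.

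Genes beyond the naming rule, picked after their values were seen, were also highest in Car4fl/fl-CD11cCre library 3. Retnla, which encodes the resistin-like molecule RELM alpha, averaged 22.5 ± 35.6 CPM in Car4fl/fl-CD11cCre libraries and 0.962 ± 0.46 CPM in Car4fl/fl libraries (adjusted p 0.264 by edgeR). Alox15 had 3, 11 and 113 counts in Car4fl/fl-CD11cCre libraries and 1, 0 and 1 counts in Car4fl/fl libraries, and did not pass the filter.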
